A study of Schizosaccharomyces pombe with 2 samples.

Results

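The genes described here are the 55 nuclear coding genes of fission yeast, Schizosaccharomyces pombe, that encode proteins of the small subunit of the cytosolic ribosome. They were chosen by name, as coding genes whose symbol is rps followed by digits in the RefSeq annotation, out of 5113 coding genes on chromosomes I to III. One further symbol of this form, the mitochondrially encoded rps3, was left out. The annotation names all 55 products as small-subunit (40S) proteins. By the number in the symbol they fall into 31 families: 8 hold a single gene, 22 hold a pair and 1, S4, holds 3 genes, so 47 genes have a paralogue.

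Polyadenylated RNA 3′ ends were sequenced from total RNA of a strain labelled nmt1-SEB1 and of a wild-type strain, with 1 library each. In the first strain seb1 is under the nmt1 promoter, which thiamine represses, and the medium of both strains was minimal medium plus thiamine. The sources describe this strain both as a knock-out and as a knockdown, and the name of its construct is used instead. seb1 itself had 826 reads against 1848 in wild type, a ratio of 0.362 (95% interval 0.333 to 0.393) in RPM, the reads per 1000000 reads assigned to genes.

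The small subunit binds the mRNA and the initiator tRNA and decodes each codon, and its proteins sit in the head, platform and body around the ribosomal RNA. Ribosomal proteins are needed in equal numbers, and in yeasts their genes are among the most strongly transcribed in growing cells. Many are duplicated, so that paralogues with the same or nearly the same protein have their own promoters and their own 3′ ends. Seb1 binds nascent RNA and is the relative of budding yeast Nrd1, and the question of the series is its part in forming and choosing transcript ends.

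Each read marks 1 poly(A) site, so a count does not grow with gene length and levels can be set side by side between genes. The libraries held 3376142 reads (nmt1-SEB1) and 2702105 reads (wild type), and 1 read was worth 0.301 and 0.372 RPM. Reads of a gene were counted on its strand from its start to 1000 nt past its end or to the next gene on that strand. With 1 library per group no difference below has a replicate check. Tests and intervals therefore set the reads of 1 library against those of another, not condition against condition, and cover counting error only. RPM is a share of the library, so a change in the amount of RNA per cell cannot be told apart from a change in its make-up.

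The sequences that end at the sites in 3 pairs of paralogues are shown first, because the changes described below concern which of these ends a transcript carries. Each run gives the 30 nt on the coding strand up to the most used position of the cluster, 5′ to 3′, from the RefSeq genome (ASM294v3), with the poly(A) signal AATAAA or AATGAA in capitals where it occurs. The proximal site is the one nearer the stop codon.
rps901 proximal, chrI:475388-475417, minus strand, 105 nt past the stop codon: aagaagtttgtttgattgcatagtggttaa
rps901 distal, chrI:475268-475297, minus strand, 225 nt: tgatgaatttgttgtttgttttgtaaaaaa
rps902 proximal, chrII:2060409-2060438, plus strand, 68 nt: gagtagaaAATGAAattcctttcttgtgta
rps902 distal, chrII:2060467-2060496, plus strand, 126 nt: caatgcatatggtaactgttctttgtcgta
rps23 proximal, chrI:2135328-2135357, minus strand, 29 nt: aacgaacttAATAAAaagttgtttgtctca
rps23 distal, chrI:2135249-2135278, minus strand, 108 nt: cgtagtaaattagaatcatgtgacagggga
rps2302 proximal, chrII:2897537-2897566, plus strand, 35 nt: gtaatgcatttggtcataggtgcctctaaa
rps2302 distal, chrII:2897714-2897743, plus strand, 212 nt: tttaaacaatagctatttgtggaagttgaa
rps1901 proximal, chrII:3818904-3818933, plus strand, 45 nt: taatctaagtgtttaagtggcttctcttaa
rps1901 distal, chrII:3819140-3819169, plus strand, 281 nt: accatctgtctactcattctccgagtaaaa
rps1902 proximal, chrII:536003-536032, plus strand, 45 nt: aatcAATAAAtgatgtttcgtgggttgtta
rps1902 distal, chrII:536267-536296, plus strand, 309 nt: ctaatagttaaaaaacgattatcctaccaa

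Nearly all of these genes ended further downstream in nmt1-SEB1. In 51 genes a proximal and a distal cluster of poly(A) sites could be compared, and the distal cluster held a larger share in nmt1-SEB1 in 48 of them (94.1%), against 67.4% of the 2943 coding genes tested. None was called lower, against 3.98% of coding genes. rps102, rps1802 and rps2802 were called neither way, and rps1702, rps27, rps29 and rps3002 were not tested because a 2nd cluster was lacking. A call needed an adjusted p under 0.05 (two-sided Fisher's exact test, Benjamini-Hochberg method, all coding genes tested) and shares at least 10 percentage points apart. The test of rps1802 (97.8% against 92.0%) passed but its difference was 5.76 points. The compared clusters held a median of 81.9% of a gene's reads past the stop codon in nmt1-SEB1 and 95.2% in wild type. With clusters chosen on wild type alone, which leaves out ends not used there, 26 of 37 members were higher (49.3% of coding genes).

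In wild type the distal end of an rps gene was rarely used. The median distal share was 1.87% there, against 16.9% for coding genes. It was below 10% in 40 of the 51 members, and 10 members had no distal read at all in wild type. Clusters were ranked by their share averaged over both libraries, so a distal cluster unused in wild type could enter through nmt1-SEB1 alone. Low wild-type shares and large differences therefore follow in part from that choice, for coding genes too. In nmt1-SEB1 the median was 75.4% (65.3% for coding genes), and 12 members exceeded 90%. The median difference was 45.6 points for rps genes and 25.5 points for coding genes, and 24 members (47.1%, against 26.0% of coding genes) differed by 50 points or more. With clusters chosen on wild type alone the median difference was 22.6 points over the 37 members tested.

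**Figure D1:**
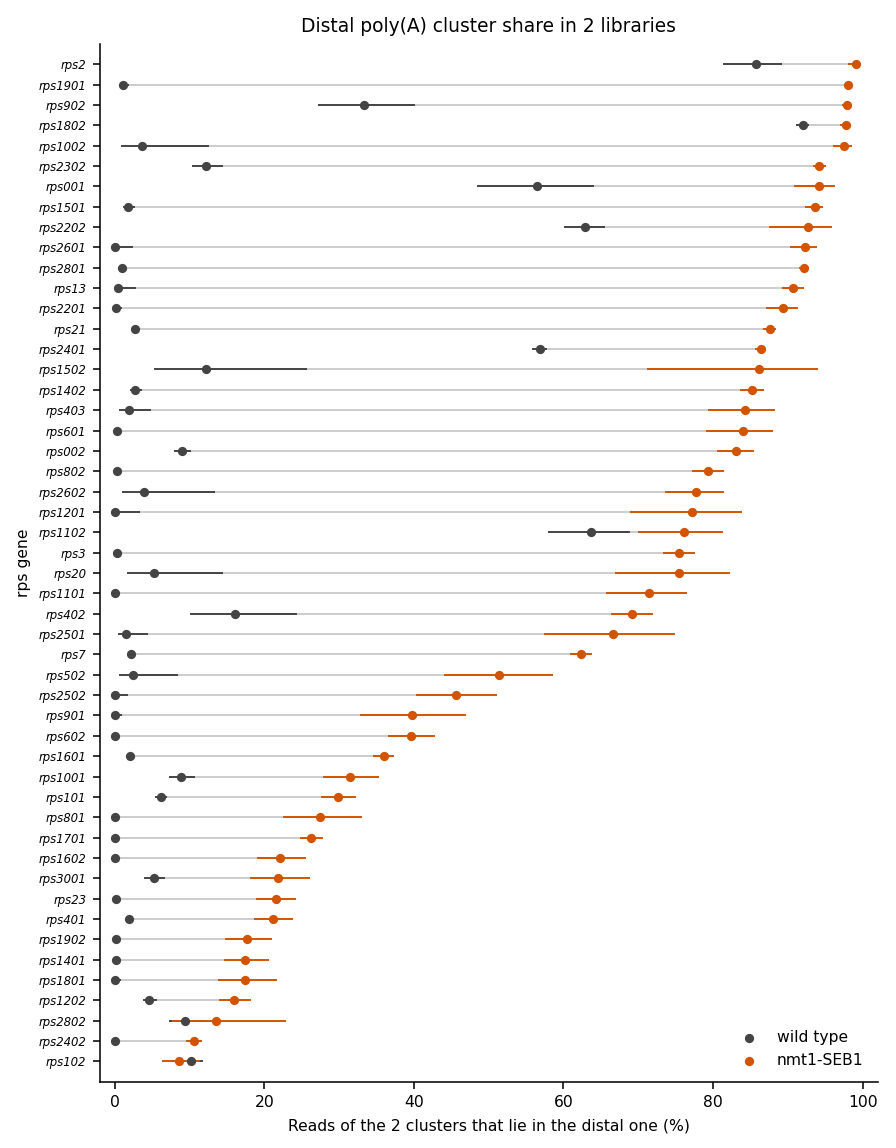
Share of the reads of the proximal and distal clusters that lie in the distal one (percent, x axis) for rps genes (y axis; 1 of the 51 is not drawn), in wild type (grey) and nmt1-SEB1 (orange), 1 library each; horizontal bars are Wilson 95% intervals. The nmt1-SEB1 point lies to the right of the wild-type point in every gene drawn except rps102.

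The largest shift was that of rps1901 (SPBC21C3.13), which encodes eS19, a protein of the subunit's head. It had 5950 distal and 121 proximal reads in nmt1-SEB1 (98.0% distal, Wilson interval 97.6 to 98.3), against 14 distal and 1266 proximal reads in wild type (1.09%, 0.653 to 1.83). Of its 2 printed ends, the one 281 nt past the stop codon prevailed in nmt1-SEB1 and the one at 45 nt in wild type. rps1002, which encodes eS10 of the head, had 719 distal and 18 proximal reads in nmt1-SEB1 (97.6%) and 2 and 52 in wild type (3.70%). For rps2601, encoding eS26 at the mRNA exit channel, 847 reads were distal and 71 proximal (92.3%) in nmt1-SEB1, against 0 of 161 in wild type, which allows a share of up to 1.86%. The distal site of rps2601 ends in a genomic run of 7 A, where internal priming by the oligo(dT) primer was not tested.

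The next largest differences had the same form. rps1501 (uS19) had 93.6% distal reads in nmt1-SEB1 against 1.75% in wild type, and rps2801 (eS28) had 92.2% against 1.02%. The shares were 90.8% against 0.495% for rps13 (uS15), and 89.4% against 0.149% for rps2201 (uS8). rps21 (eS21) had 87.6% against 2.70%. rps601, whose product eS6 is phosphorylated downstream of TOR signalling, had 84.0% against 0.346%, and rps1402 (uS11) had 85.3% against 2.74%. The Wilson intervals of the libraries did not overlap in any of these 10 genes. They were chosen for the largest differences, so this adds no support. With clusters chosen on wild type alone, other sites were compared in rps21 and rps2801, and their differences were -0.45 and -0.33 points. That choice gave 63.9 points for rps1901, 26.6 for rps601 and 10.1 for rps1501, and no value for rps13, rps2201 and rps2601. Between the first and last cluster the difference was 56.7 points in rps13, 61.6 in rps2601 and 41.9 in rps1402. No gene was called in the other direction, and the lowest difference was that of rps102 (eS1), at 8.57% in nmt1-SEB1 and 10.1% in wild type (adjusted p = 0.347 by Fisher's exact test). Its difference was 11.5 points with clusters of 10 nt and 13.0 points between its first and last cluster.

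Other members kept most reads at the proximal end in nmt1-SEB1. rps2402 (eS24) had 412 distal and 3492 proximal reads there (10.6%), against 4 and 7787 in wild type (0.0513%). rps1202 (eS12) had 15.9% against 4.62%, rps1401 (uS11) 17.4% against 0.198%, and rps1902 (eS19) 17.7% against 0.122%. These shares cover the 2 clusters only. The main wild-type cluster of rps1202 held 51.3% of all its nmt1-SEB1 reads past the stop codon. In the genes without a 2nd cluster the main wild-type cluster, within the window counted, took 96.9% of the nmt1-SEB1 reads of rps27 (eS27), 94.5% of those of rps1702 (eS17), 93.6% of those of rps3002 (eS30) and 90.1% of those of rps29 (uS14). The next gene on the strand, non-coding ones included, cut that window to 157, 199, 104 and 441 nt past the gene end. With non-coding RNAs ignored the log2 abundance ratio of rps3002 turned from -1.28 to 0.37, so ends beyond its window are not covered by this share.

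In RPM, most proximal clusters were lower and most distal clusters higher in nmt1-SEB1. The proximal cluster was at least 2-fold lower in 45 of 51 members, against 54.2% of coding genes, and higher only in rps402 among these members, against 6.29% of coding genes. The distal cluster was at least 2-fold higher in 41 members, against 54.2% of coding genes, and lower in 4 (rps102, rps1802, rps2202 and rps2802), against 9.99%. The median log2 ratio was -2.32 at the proximal cluster (-1.27 for coding genes) and 5.28 at the distal cluster (1.52 for coding genes), with genes at 0 in wild type ranked highest. Distal clusters could be chosen through nmt1-SEB1 alone, so their high ratios follow in part from that choice. rps2801 shows both sides, with 841 proximal reads in nmt1-SEB1 against 9390 in wild type and 9887 distal reads against 97. In rps601 the proximal cluster went from 2594 reads in wild type to 44, while the distal one went from 9 to 231.

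**Figure D2:**
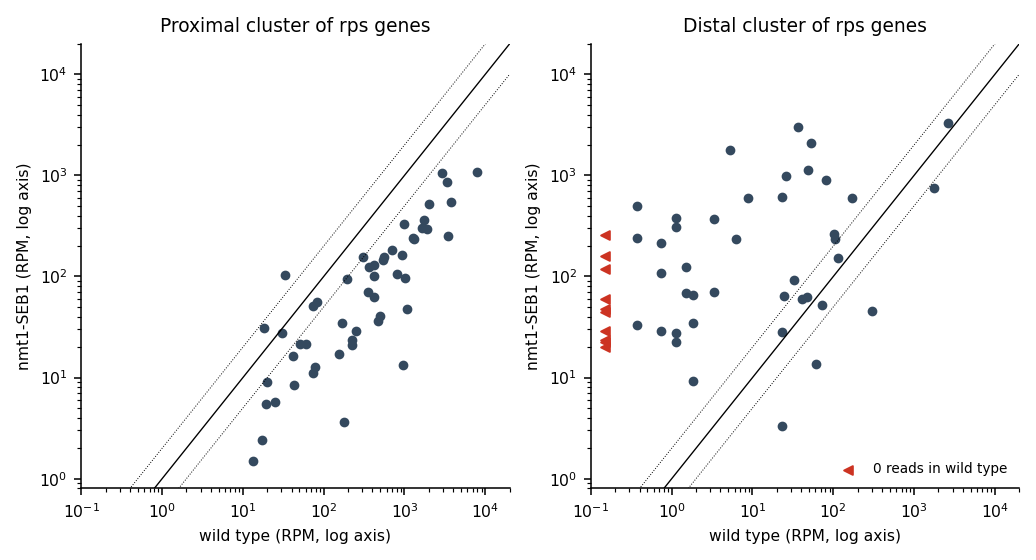
RPM at the proximal (left) and distal (right) cluster of 51 rps genes, wild type on the x axis and nmt1-SEB1 on the y axis, both log axes; the solid line marks equal values and the dotted lines a 2-fold difference. Proximal points lie mostly below the lines and distal points mostly above them; red triangles are the 10 genes with 0 distal reads in wild type, drawn at the left edge.

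The mean end of the reads moved with the clusters. In nmt1-SEB1 the reads of 47 of 55 members ended on average at least 20 nt further downstream (74.3% of coding genes did), none ended 20 nt or more further upstream (2.83% of coding genes) and 8 lay within 20 nt. The median of these mean ends was 184 nt past the stop codon in nmt1-SEB1 and 64.4 nt in wild type, with a median difference of 88.4 nt (65.9 nt for coding genes). The difference ran from 2.53 nt in rps3002 to 331 nt in rps1201, a gene for eS12 whose mean end lay at 392 nt against 61.3 nt. rps102 ended 156 nt further downstream although its distal share was not higher; 27.1% of its reads against 0.173% lay further than 200 nt past its largest cluster, the one with the highest share averaged over both libraries.

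Such read-through beyond a gene's largest cluster was near absent in wild type. That cluster is set by both libraries: in rps902 it lay at 126 nt past the stop codon, and the main wild-type cluster at 68 nt. Over all rps genes 17.8% of the reads past the stop codon (Wilson interval 17.6 to 18.0) lay more than 200 nt past the gene's largest cluster in nmt1-SEB1. The wild-type share was 0.0907% (0.0775 to 0.106). Beyond 100 nt the shares were 38.7% and 1.02%, and beyond 300 nt 6.03% and 0.0257%. Averaged over members, the shares came to 20.4% and 0.325% (17.2% and 3.53% for coding genes). In nmt1-SEB1 29 members exceeded 10% and in wild type none did. How many coding genes exceeded 10% was not counted, so these counts do not set rps genes apart. In some members, among them rps2801, rps21 and rps1501, the counting window ended before 200 nt past the largest cluster. Their share is 0 by construction, and they stay in the pooled share and the averages. The highest values were 89.1% in rps2601, 87.5% in rps601, 84.0% in rps1901, 81.8% in rps20 (uS10) and 80.9% in rps2201. In each of these 5 genes the largest cluster, by the share averaged over the libraries, is the proximal one. The distal cluster reads given above are therefore part of their read-through, which is no separate result.

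Wild-type ends of rps genes were close to the stop codon and well defined. The main wild-type cluster lay at a median of 65 nt past the stop codon (25 to 252 nt), against 177 nt for coding genes. It held a median of 92.7% of the wild-type reads of an rps gene, against 72.6% for coding genes. The poly(A) signal AATAAA or AATGAA stood in the 50 nt before it in 25 of 55 members (45.5%), against 29.1% of coding genes. TGTA, on the coding strand, was found in the 100 nt after it in 51 members (92.7%, against 64.6%), and GTA, the letters held within it, in all 55 (91.7% of coding genes). Base composition of these windows was not compared. In the last 30 nt before the site, as printed above, 20 of the 51 proximal and 8 of the 51 distal sites held a signal; among the 3 pairs shown it stands before the proximal site of rps902, rps23 and rps1902 and before no distal site.

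Taken by gene, abundance moved both ways. In nmt1-SEB1 12 of the 55 members (21.8%) were at least 2-fold higher in RPM, against 26.0% of 4738 coding genes, and 24 (43.6%) were at least 2-fold lower, against 16.8%, with an exact binomial 95% interval that excludes 1. The other 19 were neither. The median log2 ratio of rps genes was -0.72, that of coding genes 0.20. All rps genes together took 3.89% of gene reads against 6.37% in wild type, a ratio of 0.611. The split depended on scaling: with edgeR's TMM factors, which shift all log2 ratios by -0.65, 9 members were higher (14.2% of coding genes) and 35 lower (31.8%), and with DESeq2's median-of-ratios factors, which shift them by -0.72, the counts were again 9 (13.4%) and 35 (33.7%).

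**Figure D3:**
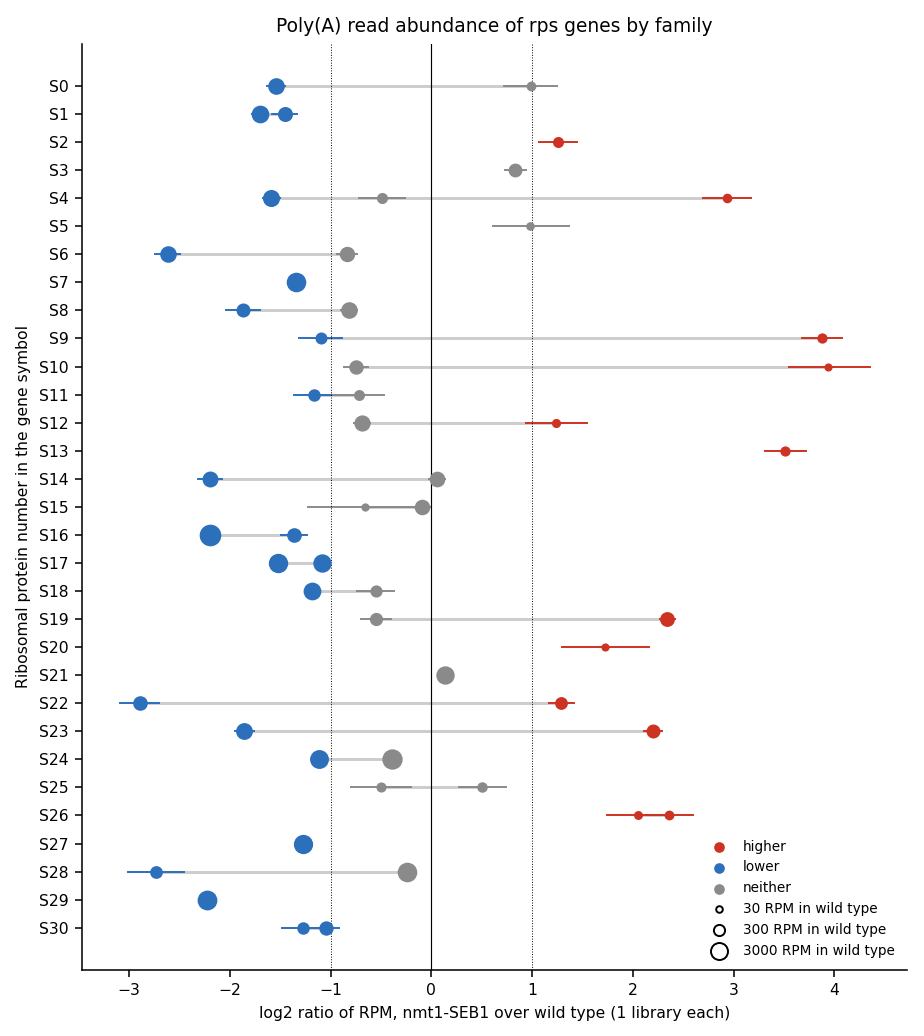
Log2 ratio of RPM, nmt1-SEB1 over wild type (x axis), for rps genes arranged by protein number (y axis; 1 of the 55 is not drawn); points of 1 family are joined, bars are exact binomial 95% intervals, point size grows with the wild-type level and dotted lines mark a 2-fold change. Families S4, S9, S22 and S23 each hold a gene called higher and a gene called lower; in S22 the higher gene, rps2201, turned to -0.96 with reads up to 200 nt past its end.

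The genes with the highest ratios were weakly read in wild type. Wild-type reads are the denominator of the ratio, so low wild-type levels and high ratios go together in part by construction. rps1002 (eS10) had 1059 reads there and 56 in wild type, or 319 and 20.8 RPM, a log2 ratio of 3.94. rps902, which encodes uS4 (S9), whose bacterial counterpart binds early in subunit assembly, had 4078 and 225 reads (1229 and 83.7 RPM; log2 ratio 3.88). rps13 (uS15), the single gene of its family, had 3022 and 215 reads (log2 ratio 3.51, and 1.90 with reads counted only to 200 nt past the gene). rps402 (eS4) had 1509 and 160 (2.93). The 12 higher members had 20.8 to 609 RPM in wild type, and the 24 lower members 187 to 8285 RPM, so the ranges overlap between 187 and 609 RPM.

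The other higher genes were rps2601 (1121 against 177 reads; log2 ratio 2.36), rps1901 (10255 against 1638; 2.34), rps2302 (6469 against 1140; 2.20) and rps2602 (546 against 107; 2.05). After these came rps20 (1.72), rps2201 (1.29), rps2 (1.26) and rps1201 (1.24). Where reads past the gene end were counted only up to 200 nt, 8 of the 12 were still higher. In the other 4 the call rested on reads beyond 200 nt, and the log2 ratio became -0.54 for rps2601, -0.96 for rps2201, -0.52 for rps20 and 0.17 for rps1201. rps2 (uS5, at the mRNA entry channel), which overlaps an annotated non-coding RNA on its strand, had a log2 ratio of 3.47 when non-coding RNAs did not end the window. The calls of rps2201, rps2 and rps1201 were lost under both other scalings. Of the members whose annotation overlaps another gene on the same strand (rps2, rps3, rps13 and rps1801), rps1801 (uS13) lost reads when each read was given to 1 gene, from 455 to 299 in nmt1-SEB1 and from 541 to 505 in wild type.

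The most read rps genes of wild type were lower or little changed, and choosing them by the denominator of the ratio can favour low ratios. rps1601 (uS9, whose tail reaches the tRNA) had the most reads in wild type, 22281, and 5987 in nmt1-SEB1, or 8285 and 1804 RPM (log2 ratio -2.20). rps2401 (eS24) had 13703 in wild type and 12886 in nmt1-SEB1 (-0.39). rps29 (uS14), a zinc-binding protein of the head, had 11126 and 2940 (-2.22). rps2801 had 10344 and 10805 (-0.24), rps7 (eS7) 10301 and 5017 (-1.34, but 0.18 with non-coding RNAs ignored), and rps1701 (eS17) 9467 and 4056 (-1.53).

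The lowest ratios came from 7 duplicated genes and rps29, and 47 of the 55 members are duplicated. rps2202 (uS8) had 247 reads against 1488 in wild type (log2 ratio -2.89). rps2802 (eS28) had 129 and 695 (-2.73), and rps601 (eS6) 645 and 3203 (-2.62). rps1401 (uS11) had 684 and 2540 (-2.20), rps801 (eS8) 395 and 1170 (-1.87), and rps23, which encodes uS12 at the decoding centre, 1217 and 3568 (-1.86). With rps29 and rps1601 these are the 8 lowest. TMM and median-of-ratios scaling move every log2 ratio down, so none of the 24 lower calls could be lost under them. In the window of 200 nt 23 of the 24 stayed lower. The number of lower members was 19 with non-coding RNAs ignored and 18 with reads past the stop codon only. The log2 ratio of rps2802 was -1.91 with non-coding RNAs ignored. No member had fewer than 20 reads in either library; the fewest were the 50 of rps1502 in nmt1-SEB1 and the 56 of rps1002 in wild type.

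Abundance and end choice went together in nmt1-SEB1. All 12 higher members had most of their paired cluster reads at the distal site, at 69.2% to 99.1%. Their median was 91.5%, against 81.7% for 592 higher coding genes. The 20 lower members with 2 clusters had a median of 28.7% (8.57% to 97.8%), against 54.4% for 526 lower coding genes. Only 6 of these members exceeded 50%. The 19 members called neither had a median of 76.1% (63.0% for coding genes), and 13 of them exceeded 50%. Across the 51 members Spearman's rho between the log2 ratio and the distal share in nmt1-SEB1 was 0.587, against 0.228 across 2943 coding genes, and 0.126 between the log2 ratio and the wild-type distal share. These points share their libraries, and both axes use the same nmt1-SEB1 reads, so the coefficients are descriptions. rps2202, rps601, rps002 and rps1802 were lower and yet had distal shares of 92.7%, 84.0%, 83.1% and 97.8%.

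**Figure D4:**
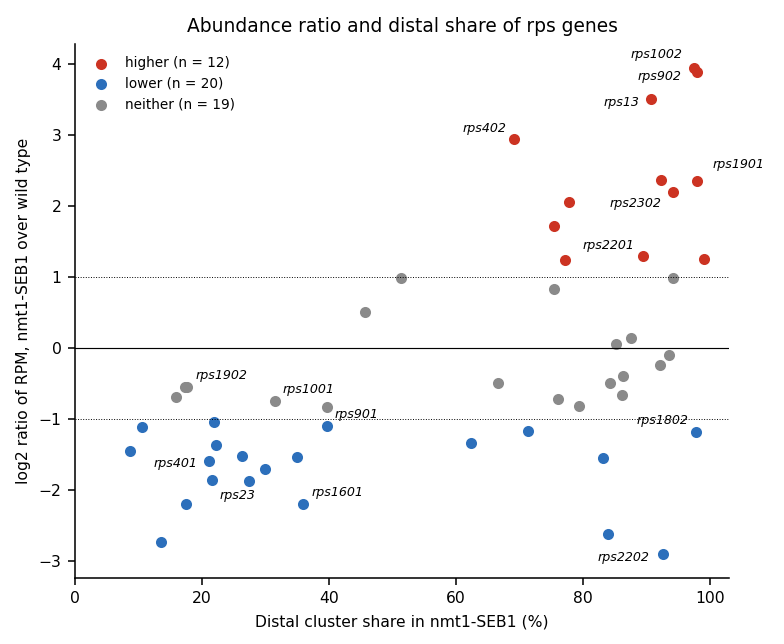
Log2 ratio of RPM, nmt1-SEB1 over wild type (y axis), against the distal cluster share in nmt1-SEB1 in percent (x axis) for 51 rps genes, coloured by abundance call; dotted lines mark a 2-fold change. The 12 higher genes lie at 69.2% or more on the x axis, while the 20 lower genes spread from 8.57% to 97.8%.

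Paralogues of the same protein often had different ratios. Within a family, the ratio of 2 genes does not depend on library scaling. Of the 25 pairs, 16 changed at least 2-fold in their odds with an interval that excludes 1. In 12 of these the gene less read in wild type gained, and the wild-type reads that define this gene also enter the odds. Pairs of other genes were not compared, and 26.0% and 16.8% of coding genes were themselves called higher and lower, so the count describes these pairs and shows nothing particular to paralogues. The less read gene became the more read one in 7 pairs, and the leading gene changed in 6 of 23 families. Proteins of a pair were at least 80.3% identical and 8 pairs encoded the same protein. The regions past the stop codon shared runs of at most 13 nt, and the 50 nt before the main wild-type sites were 38.0% to 61.1% identical. Read length is not given in the sources used here, and coding sequences of a pair were 74.5% to 94.0% identical. Whether reads of ends close to the stop codon were split between paralogues was not tested.

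The largest change was in S9 (uS4). rps902 held 30.9% of the family's reads in wild type (27.7 to 34.4) and 93.4% in nmt1-SEB1 (92.6 to 94.1), a log2 odds ratio of 4.97 (4.68 to 5.26). rps901 had 502 reads in wild type and 290 in nmt1-SEB1 (log2 ratio -1.10). Its distal share went from 0% (0 of 459 reads, which allows up to 0.654%) to 39.7%, and that of rps902 from 33.3% to 97.9% (adjusted p = 1.15e-139 by Fisher's exact test). In rps902, 3307 of the 4078 reads ended in the cluster 126 nt past the stop codon, whose printed run holds no AATAAA or AATGAA. The distal run of rps901 ends in 6 genomic A, where internal priming was not tested.

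In S10 (eS10) rps1002 went from 3.90% of the family's reads (3.02 to 5.03) to 51.1% (49.0 to 53.3), a log2 odds ratio of 4.69 (4.28 to 5.12). rps1001 had 1379 reads in wild type and 1012 in nmt1-SEB1 (log2 ratio -0.75), and the family sum was 534 RPM in wild type and 624 RPM in nmt1-SEB1 (ratio 1.17, 1.09 to 1.25). Distal shares were 97.6% for rps1002 and 31.5% for rps1001 in nmt1-SEB1, against 3.70% and 8.87%.

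S4 (eS4) is the family of 3. Against rps401, which led in wild type with 3921 reads and had 1609 in nmt1-SEB1, rps402 went from 3.92% to 48.4% of the pair's reads (log2 odds ratio 4.52, 4.27 to 4.78). rps403, with 331 and 291 reads, went from 7.78% to 15.3% (1.10, 0.85 to 1.35). The distal share in nmt1-SEB1 was 21.1% for rps401, 69.2% for rps402 and 84.3% for rps403, so the gene with the highest distal share was not the one with the highest abundance ratio. In rps402 the proximal cluster also rose, from 89 to 345 reads.

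S22 (uS8) and S23 (uS12) exchanged their leading gene, while their sums differed less than 2-fold. rps2201 went from 32.2% to 89.6% of its pair (log2 odds ratio 4.18, 3.95 to 4.42), while the family sum was 816 RPM in wild type and 716 RPM in nmt1-SEB1. In the window of 200 nt past the gene end the log2 odds ratio was 1.99, and the log2 ratio of rps2201 itself was below 0. rps2302 went from 24.2% to 84.2% (4.06, 3.92 to 4.19), with a sum of 1751 and 2315 RPM. In nmt1-SEB1 rps23 had 21.5% of its paired reads at the distal site and the rest 29 nt past the stop codon, where AATAAA stands in the run printed above, while rps2302 had 94.2% at the distal site 212 nt past it. Both genes encode the same uS12 protein.

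S19 (eS19) moved toward the gene that already led. rps1902 went from 33.5% to 6.35% of the pair (log2 odds ratio -2.89, -3.06 to -2.73), as rps1901 rose from 1638 to 10255 reads and rps1902 had 824 and 695. The distal share rose by 96.9 points in rps1901 and by 17.6 points in rps1902. Their proximal clusters lie at the same distance, 45 nt past the stop codon; only rps1902 has AATAAA in the printed run.

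**Figure D5:**
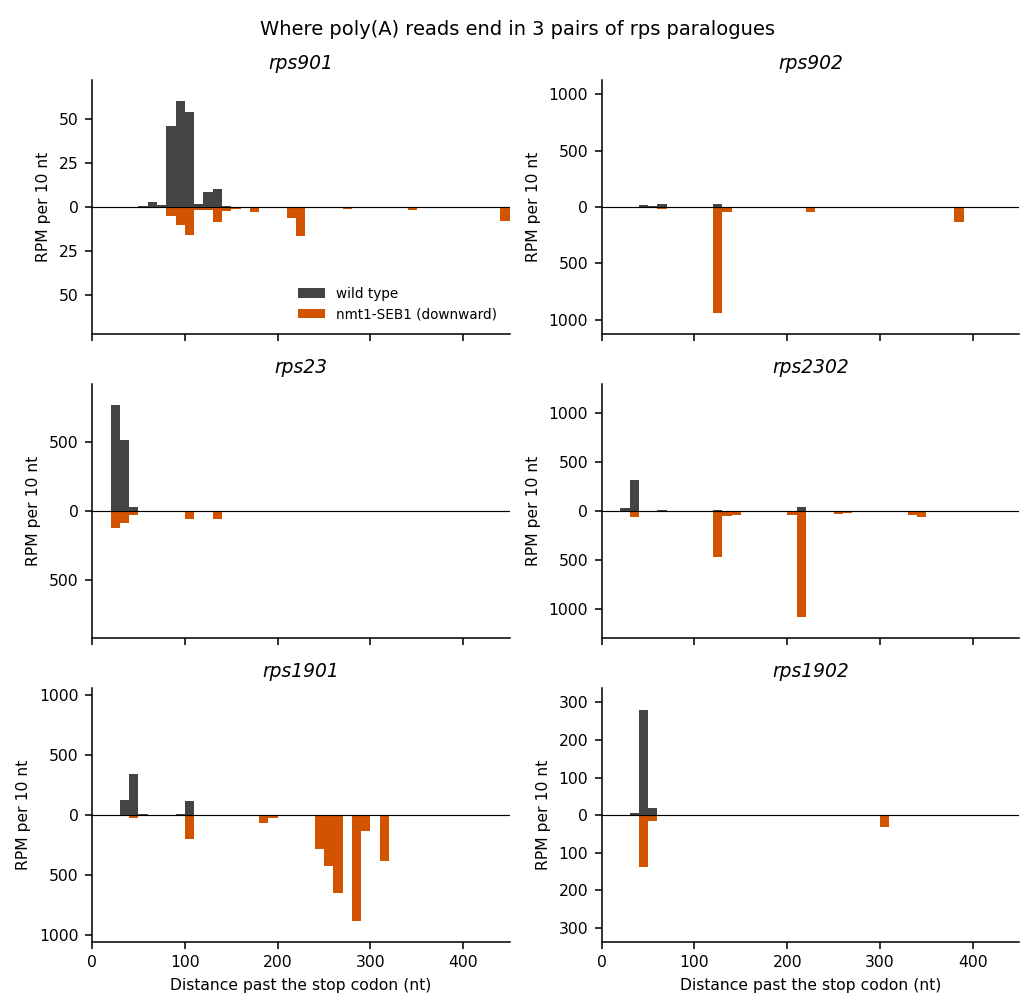
RPM per 10 nt (y axis, wild type in grey upward and nmt1-SEB1 in orange downward) against distance past the stop codon in nt (x axis) for the pairs rps901 and rps902, rps23 and rps2302, and rps1901 and rps1902; each panel has its own y scale and more distant positions are not drawn. rps902, rps2302 and rps1901 carry most nmt1-SEB1 reads downstream of their wild-type end, while rps901, rps23 and rps1902 keep a large part at it.

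By the change in distal share, site choice differed most within S28, S19, S10, S12, S14 and the pair rps401 and rps403 of S4. This share covers only 2 clusters of a gene and leaves out ends elsewhere. In S28 (eS28), whose genes encode the same protein, the distal share differed by 91.1 points in rps2801 and by 4.20 points, with no call, in rps2802, so their changes were 86.9 points apart. The changes were 79.4 points apart in S19, 71.2 in S10, 65.9 in S12 (77.2 points in rps1201 and 11.3 in rps1202), 65.3 in S14 (82.5 in rps1402 and 17.2 in rps1401) and 63.2 between rps403 (82.5) and rps401 (19.3). The mean end also moved further downstream in the gene with the larger share change of each pair. It still moved by 101 nt in rps401, against 127 nt in rps403, and by 129 nt in rps1202, against 331 nt in rps1201. In S28 and S14 the gene with the larger shift also gained within its pair: rps2802 fell from 6.30% to 1.18% of the S28 reads (log2 odds ratio -2.49, and -1.78 with non-coding RNAs ignored), and rps1402 rose from 47.1% to 80.9% of the S14 reads (2.25).

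Over all 23 pairs with sites in both genes, the gene with the higher abundance ratio had the higher distal share in nmt1-SEB1 in 16, and in 12 of the 16 pairs that changed at least 2-fold. For the wild-type distal share this held in 13 of 23. The pairs share genes in S4 and all share the libraries, so no test is given. Family sums were higher in 6 families, lower in 12 and neither in 13. S9 was the highest family of more than 1 gene (ratio 4.87) and S16 (uS9) the lowest (ratio 0.228). The sums of S4, S10, S14, S22, S23 and S28 differed less than 2-fold between the libraries, although each has a pair that changed more than 4-fold in odds.

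Promoters of rps genes carried the known boxes in both abundance classes. The homol-D box, CAGTCACA or its reverse complement TGTGACTG, a promoter element of fission yeast ribosomal protein genes, was found between 250 nt before and 50 nt after the annotated start in 34 of 55 members (61.8%), against 2.68% of coding genes. The homol-E box, searched as a direct repeat of ACCCT on either strand, was found in 21 (38.2%), against 1.25%. By abundance call, homol-D was found in 5 of the 12 higher genes, 13 of the 19 neither and 16 of the 24 lower ones. For homol-E the order differed, with the largest share among the higher genes. Windows of 40 nt around the homol-D box are given 5′ to 3′ on the coding strand, with that box in capitals. They show 1 higher gene and the pair S22. Both S22 genes carry homol-D, and their abundance over the full window went opposite ways. Homol-E, which is not marked, was also found for rps1901 and rps2202 but not for rps2201. The printed run of rps1901 starts inside its homol-E box, so that box is not shown whole.
rps1901, chrII:3818216-3818255, plus strand: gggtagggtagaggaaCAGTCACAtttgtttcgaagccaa
rps2201, chrI:1162691-1162730, minus strand: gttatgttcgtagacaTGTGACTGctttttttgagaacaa
rps2202, chrI:1512417-1512456, minus strand: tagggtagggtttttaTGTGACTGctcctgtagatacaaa

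Reads on the strand opposite an rps gene were few beside its sense reads in most members. Over all members they came to 2.88% of the sense and antisense reads together in nmt1-SEB1 (3826 reads) and 0.626% in wild type (1079 reads), and within coding sequence alone to 1.09% and 0.0631%. The medians were 0.219% and 0%, against 23.1% and 5.51% for coding genes. Sense reads are in the denominator, so many sense reads (a median of 513 RPM in wild type) lower this share by construction. Coding genes of like sense level or length were not compared. rps001 (uS2) stood apart with 1709 antisense reads against 38 in wild type, beside 418 and 171 sense reads. rps502 had 527 and 452 antisense reads beside 207 and 85 sense reads.

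Genes of the large subunit, given for comparison, moved in the same directions. Of 74 rpl genes 7 were higher and 39 lower, with a median log2 ratio of -1.07, and 57 of 63 (90.5%) had a higher distal share in nmt1-SEB1. Of the 12 genes found from a list of small-subunit assembly factors, 3 were higher (26.0% of coding genes) and 1 lower (16.8%). The higher ones were the genes for the ATPase Fap7 (log2 ratio 1.02), for Dim1, which the annotation names as a subunit of a splicing particle and not as an assembly factor (1.12), and for Rmt3, which methylates the ribosomal protein uS5 (1.57). All 3 calls were lost under both other scalings, where 3 listed genes were lower. rcl1, for an rRNA processing protein, had 784 reads against 5376 in wild type (-3.08).

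Of 10 regulators and partners found, none was higher (26.0% of coding genes) and 5 were lower (16.8%). Under TMM and median-of-ratios scaling 8 were lower (31.8% and 33.7% of coding genes). The 5 were fhl1, a forkhead factor of ribosomal protein genes (log2 ratio -1.04), the transcription factor gene sfp1 (-1.26), cpc2, for the RACK1 protein on the small subunit (-1.61), the S6 kinase family gene sck2 (-2.57) and ubi5 (-1.28). ubi5 and ubi3 (-0.45, neither) encode another small-subunit protein, eS31, fused to ubiquitin. Their distal shares were 87.9% against 57.4% and 33.7% against 0%, both higher in nmt1-SEB1.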

How the data were processed

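Poly(A) site-supporting reads were deposited by the authors as counts per genomic position and strand, 1 table per library. Alignment was with Bowtie2 to ASM294v2, per the submitters' processing notes; no source used here gives its version or the read filters, and molecular identifiers, which would mark PCR copies, are not named. Genes and sequence came from RefSeq (ASM294v3). On each strand the deposited position was A in 88.5% to 92.1% of the positions checked and the next base in at most 0.801%, so positions were read as counting from 1 on this sequence. Unused sample columns numbered 0.

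Reads were counted in every gene whose window held them, and RPM used 3319446 (nmt1-SEB1) and 2689228 (wild type) reads assigned to 1 gene each. Abundance needed 20 reads over both libraries. Clusters gathered positions within 24 nt of the most used one; each of a pair needed 5% in 1 library and the pair 20 reads in each. Intervals are Clopper-Pearson for ratios and Wilson for shares, and a count of 0 allows 3 counts.

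Members and lists were chosen with earlier results of these data known. One member is in the counts but is not reported here by itself. Values are given in full for the most read, highest, lowest and most shifted members and families; the antisense cases, the members with low distal shares and the lower genes with high ones were named after their values were seen. Alternatives were scaling (edgeR 4.0.16, DESeq2 1.42.0), window, read minimum, cluster width and choice, and read-through distance. Assigning each read to 1 gene, and read-through from the wild-type cluster, were added after seeing the data. Tests used SciPy 1.17.1 and statsmodels 0.14.6 (Python 3.11.15) and were tested on simulated data.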

Additional observations from a re-analysis of the deposited data

How the results depend on the processing

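Of the summary counts and shares, 41 alternatives stayed within 1.5 times or the interval and 13 moved. With clusters chosen on wild type alone, 37 members could be tested and 26 had a higher distal share (49.3% of coding genes). Pooled read-through was 38.7% and 1.02% beyond 100 nt, and 6.03% and 0.0257% beyond 300 nt. Antisense reads within coding sequence alone were 1.09% and 0.0631%. Under both TMM and median-of-ratios scaling 0 assembly factors were higher and 3 lower, and 8 partners were lower.

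Directions of single genes turned as follows. A window of 200 nt gave log2 ratios of -0.54 for rps2601, -0.96 for rps2201, -0.52 for rps20 and 0.038 for rps1501. With non-coding RNAs ignored it was 0.18 for rps7, 1.49 for rps1502, 0.37 for rps3002 and 0.49 for rps1501, and 0.10 for rps1501 with reads past the stop codon only. TMM and median-of-ratios scaling gave -0.15 and -0.21 for rps2502, -0.60 and -0.66 for rps1402, and -0.52 and -0.58 for rps21. The distal difference of rps102 was 11.5 points with clusters of 10 nt and 13.0 points with the first and last cluster. With clusters chosen on wild type alone it was -0.33 for rps2801, -0.13 for rps3001 and -0.45 for rps21. Log2 odds in that window were -0.20 for rps102 over rps101, 2.63 for rps2602 over rps2601 and 0.11 for rps3002 over rps3001; with non-coding RNAs ignored they were 0.997 for rps1502 over rps1501 and 1.33 for rps3002 over rps3001. The cause was not tested where the setting itself does not give it.

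No paired analysis was possible because each group has 1 library. Depth limits shares of a few reads, such as wild-type distal clusters, and the number of libraries limits every comparison.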
